A study of Mus musculus with 12 samples.

Results

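Pericytes, mesangial cells and myofibroblasts were followed through 10 genes, Acta2, Tagln, Pdgfra, Pdgfrb, Pdgfb, Postn, Des, Cspg4, Rgs5 and Itga8, taken by symbol from a count table of 56722 genes. Each symbol matched 1 row, and all 10 were among the 19821 genes with enough counts to be tested. The RNA came from whole kidneys of mice of the genotype Pod-TRECK, a line in which podocytes are sensitive to diphtheria toxin (DT). There were 4 groups of 3 biological replicates: a group without toxin, and groups taken 5, 14 and 21 days after 100 ng of DT given intraperitoneally. The control mice carried the same genotype and received no treatment. The labels state no age, sex or strain background of the mice and no promoter of the transgene.

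Pericytes wrap the capillaries between the tubules, and mesangial cells hold the capillary loops of the glomerulus together. Both depend on platelet-derived growth factor B, which endothelial cells release and which acts on the receptor PDGFRβ. In kidney injury, pericytes and resident fibroblasts can become myofibroblasts, cells that carry smooth muscle actin and lay down matrix. In bulk tissue, a change in the number of such cells and a change in RNA per cell cannot be told apart.

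Total counts ran from 31023852 to 46420299 per library. Kidney tubule markers (Lrp2, Slc34a1, Umod, Slc12a1, Slc12a3 and Aqp2) summed to 10760 to 11340 CPM (counts scaled to a common library size) in controls, 8703 to 8844 CPM at day 5 and 3034 to 3236 CPM at day 14. Of the 6, 5 fell at day 14 (edgeR adjusted p under 0.05), where 28.8% of all tested genes were lower. At day 21 the tubule markers summed to 4110, 8680 and 3930 CPM in replicates 1, 2 and 3. The part of this fall in the values of the 10 genes was not tested. Among podocyte markers, Wt1, a transcription factor, fell by 2.32 ± 0.28 at day 5 (log2, SE, edgeR adjusted p = 0.000389), from a mean of 8.02 to 1.61 CPM, and Synpo, an actin-associated protein, fell by 0.93 ± 0.12 (adjusted p = 0.000484), from 38.7 to 20.3 CPM. The library of day-21 replicate 2 stood apart from its group. It lay at -36.8 on the first principal component, against 73.04 and 80.13 for the other day-21 libraries, and the day-21 changes of the 10 genes and the day-21 counts of the lists of related genes are given with and without it. Day-21 replicates 1 and 3 also differed from each other. The chi-square of their counts was 137.9 per degree of freedom, against 4.901 to 20.26 for pairs within the other groups. Mitochondrial transcripts took 22.37% to 23.7% of counts in controls, 8.981% to 9.457% at day 14 and 21.14% in day-21 replicate 2. CPM values were scaled by TMM factors, which averaged 0.793 in controls and 1.31 at day 14. Scaling to library totals alone shifted the median over all genes at day 14 from 0.08 to 0.80 on the log2 scale, and that over the 10 genes from 1.74 to 2.47.

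More of the 10 genes were higher than control at days 14 and 21 than at day 5. At day 14, 9 of 10 rose against control, all but Itga8, with an adjusted p under 0.05 in edgeR. At that threshold 60% of all tested genes passed, 31.2% being higher and 28.8% lower. The median log2 fold change of the 10 was 1.74, against 0.08 over all tested genes. At day 5, Pdgfb was the 1 gene of 10 that rose, where 14.9% of all genes passed, 9.77% higher and 5.09% lower. Without day-21 replicate 2, which entered the shared estimate of the spread, 5 of 10 rose at day 5, where 32.3% of all genes passed and 17.4% were higher. At day 21, 7 of 10 rose, where 42.8% of all genes passed and 24.3% were higher and 18.5% lower, and without replicate 2 this was 9 of 10, where 61.6% passed and 33.2% were higher. The day-21 count was 1 without control replicate 2 or 3 and 3 without day-21 replicate 1 or 3. Calls over all genes at day 21, in both directions, were 8490 with all 12 libraries. They were 5623 and 5168 without control replicate 2 or 3, and 5450 and 4918 without day-21 replicate 1 or 3. With library totals alone, 77.7%, 85.6% and 88.3% of the calls over all genes at days 5, 14 and 21 were higher, against 65.7%, 52.1% and 56.8% with TMM factors. None of the 10 fell against control at any day in edgeR with all 12 libraries, nor did any at an unadjusted p under 0.05 or with DESeq2. Without the spread of the other groups, in fits of only the 6 libraries compared, Itga8 fell at day 5 (log2 fold change -0.43, adjusted p = 0.0256, lower in 3 of 3 libraries). In a joint test of the 3 days, 9 of 10 passed, where 66.1% of all genes did.

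**Figure D1:**
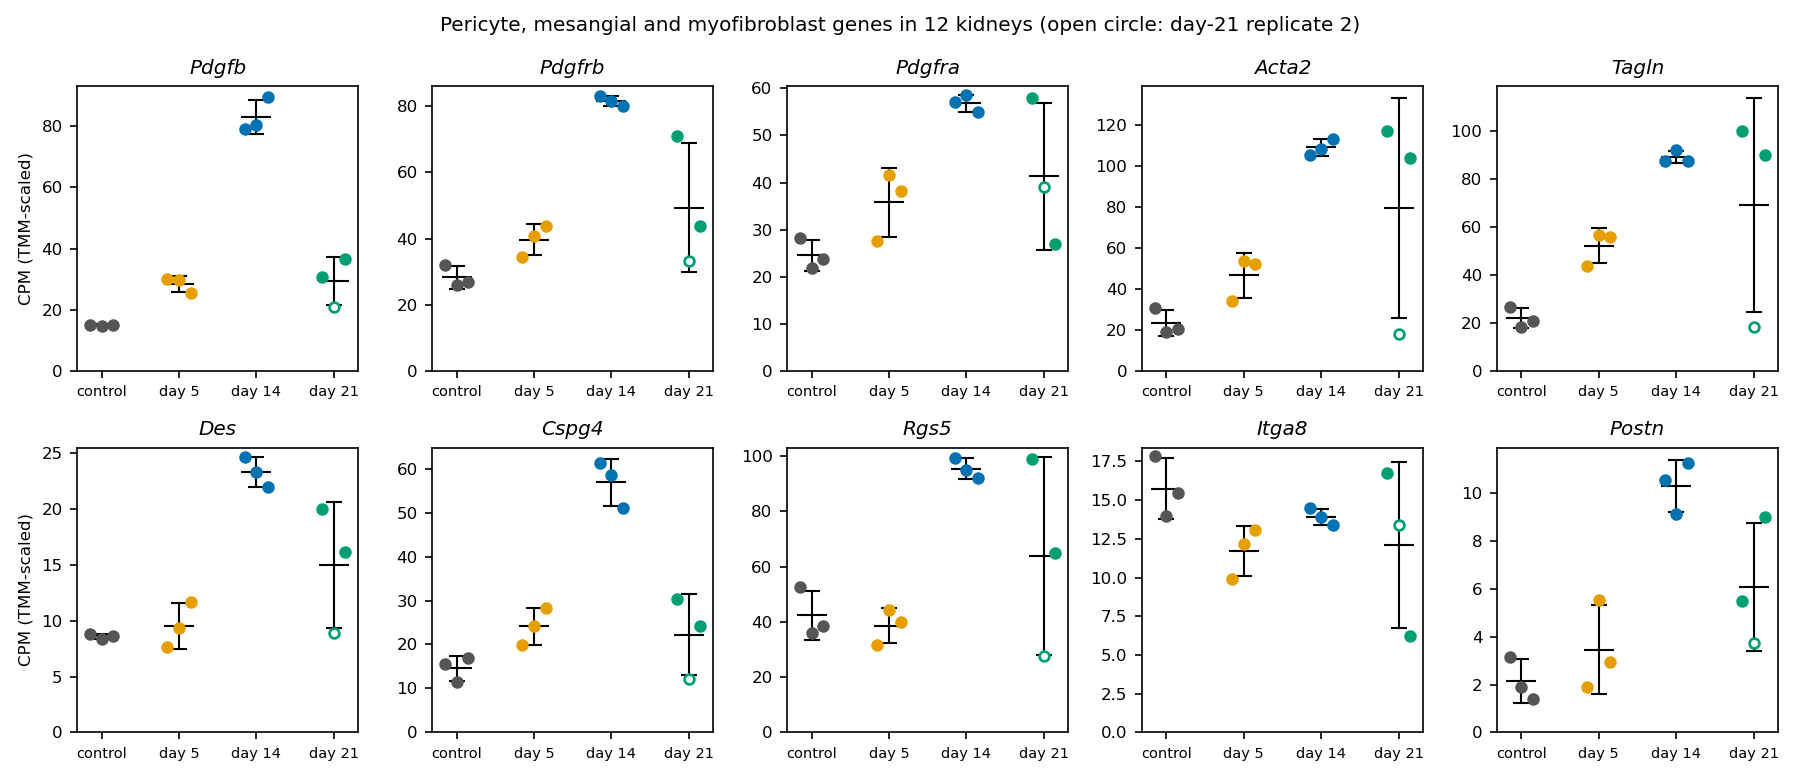
CPM scaled by TMM factors (linear axis from 0) of the 10 genes in each of the 12 libraries. Points are single kidneys, bars are the mean ± SD of 3, and the open circle is day-21 replicate 2. The 3 day-14 kidneys lie close together, and above the controls for every gene except Itga8. The share of all genes that separate in this way is not given, and 31.2% of all tested genes were called higher at day 14 in edgeR.

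Pdgfb (chromosome 15, positions 79880075 to 79899178 of GRCm39), the ligand, had the largest of the 10 changes at day 14. It was at 15.1, 14.6 and 15.1 CPM in the controls and at 30.2, 29.7 and 25.5 CPM at day 5. It reached 79.0, 80.4 and 89.4 CPM at day 14 and was at 30.8, 21.0 and 36.6 CPM at day 21. The control values did not overlap with those of any day, and the day-14 values did not overlap with any other group. The log2 fold change was 0.93 ± 0.16 (SE, adjusted p = 0.0035) at day 5, 2.48 ± 0.17 (adjusted p = 4.03e-06) at day 14 and 0.99 ± 0.16 (adjusted p = 0.002) at day 21, the last 1.17 ± 0.10 without day-21 replicate 2. Endothelial cells are the textbook source of this ligand. Of 9 endothelial markers, 6 fell at day 14 and none rose, and their summed level was 308.5 to 333 CPM in controls and 210 to 225.5 CPM at day 14. Among all tested genes, 28.8% were lower and 31.2% higher at day 14. Scaled to library totals alone, the summed endothelial level was instead higher at day 14. It was then at 296, 291 and 276 CPM, against 246, 259 and 249 CPM in controls. Platelets also carry the ligand, and their 5 markers summed to 4.597 to 4.667 CPM in controls and 5.417 to 6.376 CPM at day 14. Macrophage markers (Adgre1, Csf1r and Cd68) summed to 46.99 to 58.97 CPM in controls and 119.7 to 129.8 CPM at day 14. The part of these cells in the Pdgfb values was not tested.

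Pdgfrb (chromosome 18, positions 61178222 to 61218133) encodes the receptor of pericytes and mesangial cells. It was at 32.1, 25.8 and 26.8 CPM in controls, 34.4, 40.8 and 43.7 CPM at day 5, 83.2, 81.4 and 80.0 CPM at day 14 and 70.9, 33.2 and 43.8 CPM at day 21. All toxin libraries lay above all controls, and the day-14 libraries were the highest. It rose by 1.53 ± 0.22 on the log2 scale at day 14 (adjusted p = 0.000251) and by 0.80 ± 0.22 at day 21 (adjusted p = 0.0166), the latter by 1.01 ± 0.17 without replicate 2. At day 5 the log2 fold change was 0.49 ± 0.22 with an adjusted p of 0.171, and 0.0302 without day-21 replicate 2.

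Pdgfra (chromosome 5, positions 75312953 to 75358876) encodes the other receptor, which marks fibroblasts. It was at 28.2, 21.8 and 23.8 CPM in controls, 27.6, 41.5 and 38.3 CPM at day 5, 57.0, 58.5 and 54.9 CPM at day 14 and 57.9, 39.1 and 27.0 CPM at day 21. The day-5 and day-21 values overlapped with the controls and the day-14 values did not. It rose by 1.21 ± 0.24 at day 14 (adjusted p = 0.00141) and by 0.75 ± 0.24 at day 21 (adjusted p = 0.0282), the latter by 0.78 ± 0.25 without replicate 2, and was at 0.54 ± 0.24 at day 5 (adjusted p = 0.159).

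Of the 6 other genes of this system, 4 rose at day 14, 2 at day 21 and 1 at day 5, while Pdgfc fell at days 5 and 21. Over all genes 31.2%, 24.3% and 9.77% were higher at days 14, 21 and 5. Without day-21 replicate 2 the list had 4, 3 and 2 higher at these days, where 34.7%, 33.2% and 17.4% of all genes were higher. Pdgfa, a ligand of PDGFRα, rose by 1.67 ± 0.32 at day 14 (adjusted p = 0.00123) and by 1.36 ± 0.32 at day 21 (adjusted p = 0.00909). Pdgfd, a ligand of PDGFRβ, rose by 0.69 ± 0.10 at day 14 (adjusted p = 0.000202) and was at 0.09 ± 0.10 at day 21 (adjusted p = 0.445). Pdgfc, a ligand of PDGFRα, fell by 0.55 ± 0.11 at day 5 (adjusted p = 0.00754) and by 0.43 ± 0.11 at day 21 (adjusted p = 0.0132), and was at -0.23 ± 0.11 at day 14 (adjusted p = 0.0915). Nrp1, a co-receptor, rose by 0.81 ± 0.10 at day 14 (adjusted p = 9.62e-05) and by 0.45 ± 0.10 at day 21 (adjusted p = 0.0067). Ptpn11, a phosphatase that binds activated receptors, rose by 0.25 ± 0.07 at day 5 (adjusted p = 0.0441). Pdgfrl, a receptor-like protein, rose by 1.82 ± 0.63 at day 14 (adjusted p = 0.028) from a mean of 0.161 to 0.580 CPM.

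Among the contractile genes, Acta2 and Tagln moved alike. Acta2 (chromosome 19, positions 34218490 to 34232990) encodes smooth muscle α-actin, the usual marker of myofibroblasts. Its 250 bases before the RefSeq start (GRCm38.p6, chr19:34255374-34255623, minus strand) are shown because the gene is a known target of serum response factor, which binds the CArG box; the capitals mark matches to that motif in which 1 of the 6 central A or T letters is a C or G.

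Acta2: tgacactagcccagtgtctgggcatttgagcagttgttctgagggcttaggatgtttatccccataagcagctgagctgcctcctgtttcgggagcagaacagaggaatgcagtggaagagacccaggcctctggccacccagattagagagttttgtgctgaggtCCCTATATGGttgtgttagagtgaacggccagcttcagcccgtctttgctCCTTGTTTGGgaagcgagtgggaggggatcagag

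The matches lie 84 to 75 and 34 to 25 bases before the start. Such windows were searched for 7 of the 10 genes, 8 windows in all. Windows on chromosome 18, which holds Pdgfrb, were left out of this search of the 10 genes, and there was no window for Tagln or Pdgfb. The motifs were therefore not looked for in Tagln, Pdgfb and Pdgfrb. Neither the exact motif nor a match with 1 changed central letter was in the windows of the other 6 of the 7 genes searched. Changes in the outer C and G letters were not searched for. The exact CArG box was in 1.47% of all 32851 windows and the form with 1 changed central letter in 7.24%. Of the other motifs searched on both strands, CATTCC (in 12.6% of windows) was found in the Acta2 window and TATAAA (12.4%) in 1 of the 2 windows of Postn. The form with 1 changed central letter was added after the exact search.

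Acta2 was at 30.7, 19.2 and 20.5 CPM in controls, 34.1, 53.5 and 52.3 CPM at day 5, 105, 108 and 113 CPM at day 14, and 117, 18.0 and 104 CPM at day 21. Day-21 replicate 2 was below every control, and the other day-21 kidneys were at the level of day 14. Acta2 rose by 2.22 ± 0.52 at day 14 (adjusted p = 0.00372) and by 1.76 ± 0.51 at day 21 (adjusted p = 0.0201), the latter by 2.23 ± 0.20 without replicate 2. At day 5 the log2 fold change was 0.99 ± 0.50 with an adjusted p of 0.222, and 0.0017 without day-21 replicate 2. Counts of near-identical actin genes can share reads. Acta1, the skeletal muscle actin, averaged 0.0298 CPM in controls and 4.77 CPM at day 14. The 6 skeletal muscle markers, of which Acta1 is 1, summed to 53.1, 48.5 and 1.31 CPM in day-14 replicates 1, 2 and 3. The part of shared reads in the Acta2 values was not tested.

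Tagln (chromosome 9, positions 45840917 to 45847356) encodes transgelin, an actin-binding protein of smooth muscle. It was at 26.6, 18.5 and 20.8 CPM in controls, 43.8, 56.9 and 55.9 CPM at day 5, 87.8, 92.2 and 87.8 CPM at day 14 and 100.04, 18.2 and 90.1 CPM at day 21. The day-5 and day-14 libraries were all above the controls, and day-21 replicate 2 was below them. Tagln rose by 2.02 ± 0.46 at day 14 (adjusted p = 0.00321) and by 1.66 ± 0.46 at day 21 (adjusted p = 0.0163), the latter by 2.11 ± 0.14 without replicate 2. At day 5 it was at 1.25 ± 0.45 (adjusted p = 0.0915), and without day-21 replicate 2 at 1.25 ± 0.13 (adjusted p = 2.65e-05). Its end overlaps Pcsk7 on the other strand, which held 45.2% as many counts as Tagln, and the labels do not state whether counting used strand.

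Des (chromosome 1, positions 75336973 to 75345223), desmin, is an intermediate filament protein of muscle, mesangial cells and pericytes. It was at 8.81, 8.37 and 8.67 CPM in controls, 7.62, 9.34 and 11.6 CPM at day 5, 24.6, 23.3 and 21.9 CPM at day 14 and 20.02, 8.85 and 16.1 CPM at day 21. Controls and day 5 overlapped, and the day-14 kidneys were above both. Des rose by 1.43 ± 0.25 at day 14 (adjusted p = 0.000598) and by 0.80 ± 0.24 at day 21 (adjusted p = 0.024), the latter by 1.06 ± 0.15 without replicate 2, and was at 0.15 ± 0.25 at day 5 (adjusted p = 0.739). The 6 skeletal muscle markers summed to 53.1 and 48.5 CPM in day-14 replicates 1 and 2 and to 1.31 CPM in replicate 3, against 0.723 to 1.08 CPM in controls. Des was at 24.6, 23.3 and 21.9 CPM in these 3 libraries, and the part of muscle in its values was not tested.

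**Figure D2:**
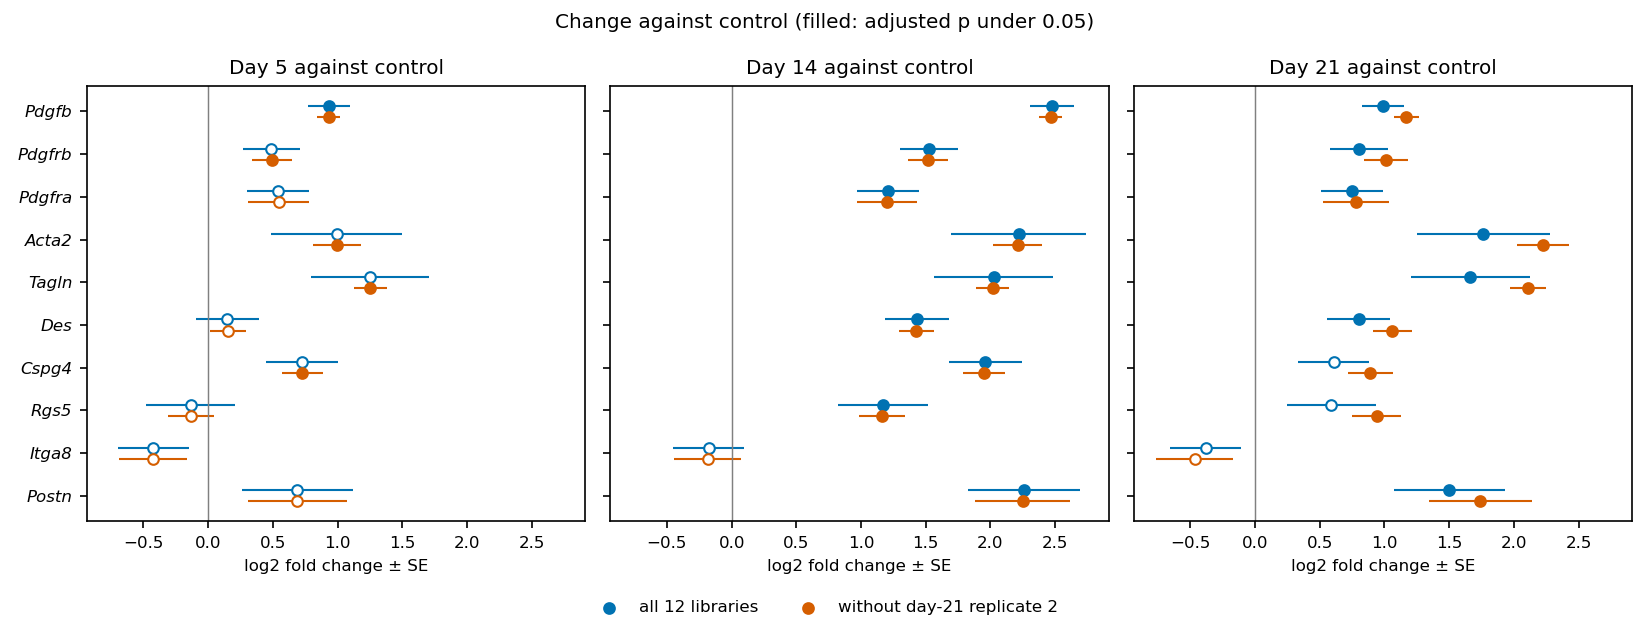
Log2 fold change against control ± SE of the fit for the 10 genes at days 5, 14 and 21, with all 12 libraries (blue) and without day-21 replicate 2 (orange); filled points have an adjusted p under 0.05. Leaving the library out narrows the errors of Acta2 and Tagln most visibly and leaves Itga8 open at every day.

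Cspg4 (chromosome 9, positions 56772317 to 56807154) encodes NG2, a surface proteoglycan of pericytes. It was at 15.7, 11.4 and 16.8 CPM in controls, 19.9, 24.3 and 28.3 CPM at day 5, 61.2, 58.6 and 51.0 CPM at day 14 and 30.3, 12.2 and 24.3 CPM at day 21. Days 5 and 14 lay above the controls, and day-21 replicate 2 lay among them. Cspg4 rose by 1.96 ± 0.28 at day 14 (adjusted p = 0.000226). The log2 fold change was 0.73 ± 0.28 at day 5 (adjusted p = 0.107) and 0.61 ± 0.28 at day 21 (adjusted p = 0.0954). Without day-21 replicate 2 the values were 0.73 ± 0.16 (adjusted p = 0.00454) and 0.89 ± 0.17 (adjusted p = 0.000899).

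Rgs5 (chromosome 1, positions 169483070 to 169523382) encodes a regulator of G protein signalling that marks pericytes. It was at 52.6, 36.0 and 38.7 CPM in controls, 31.8, 44.3 and 39.8 CPM at day 5, 99.4, 95.0 and 92.0 CPM at day 14 and 99.0, 27.5 and 64.8 CPM at day 21. Controls and day 5 overlapped, and day-21 replicate 2 was below both. Rgs5 rose by 1.17 ± 0.35 at day 14 (adjusted p = 0.0134), a call with an adjusted p of 0.057 without control replicate 2 and 0.0527 without control replicate 3. It was at -0.13 ± 0.35 at day 5 (adjusted p = 0.838), and at 0.01 there with library totals. At day 21 it was at 0.59 ± 0.35 (adjusted p = 0.184), and at 0.94 ± 0.19 (adjusted p = 0.00112) without replicate 2.

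Itga8 (chromosome 2, positions 12111443 to 12306733) encodes the integrin α8 subunit, which in the glomerulus marks mesangial cells. It was at 17.8, 14.0 and 15.5 CPM in controls, 9.89, 12.2 and 13.05 CPM at day 5, 14.5, 13.9 and 13.4 CPM at day 14 and 16.7, 13.4 and 6.23 CPM at day 21. The day-5 kidneys lay below the controls, day 14 overlapped with them, and the day-21 kidneys spanned a wider range than any other group. The log2 fold changes were -0.43 ± 0.27 (adjusted p = 0.341), -0.18 ± 0.27 (adjusted p = 0.589) and -0.38 ± 0.27 (adjusted p = 0.274) at days 5, 14 and 21, the last -0.47 ± 0.30 without replicate 2 (adjusted p = 0.192). With library totals the day-14 and day-21 values turned to 0.55 and 0.08, both still below the median of all genes on that scale, 0.80 and 0.55.

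Of the ligands and partners of this integrin, Npnt, nephronectin, rose by 0.71 ± 0.14 at day 5 (adjusted p = 0.00707), and was at 0.08 ± 0.14 at day 14 (adjusted p = 0.623). Itgb1, the β1 subunit, rose at all 3 days, by 0.51 ± 0.14, 0.82 ± 0.14 and 0.41 ± 0.14 (adjusted p = 0.0285, 0.000513 and 0.0328). Frem1 rose by 1.86 ± 0.29 at day 14 (adjusted p = 0.000355), while Fras1, a related matrix protein, fell by 0.80 ± 0.13 (adjusted p = 0.000506) and Egfl6, a further ligand, fell by 1.76 ± 0.29 (adjusted p = 0.000453). Frem2 was at 0.20 ± 0.26 at day 14 (adjusted p = 0.532). Of these 6 genes, 2 rose and none fell at day 5, 2 rose and 2 fell at day 14, and 2 rose and 1 fell at day 21. Without day-21 replicate 2, 1 also fell at day 5 and 2 fell at day 21, in each case by the addition of Egfl6. In that fit 14.9% and 28.4% of all genes were lower at days 5 and 21. With all 12 libraries, the shares over all genes were 9.77% higher and 5.09% lower at day 5, 31.2% and 28.8% at day 14, and 24.3% and 18.5% at day 21.

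Postn (chromosome 3, positions 54268530 to 54298458) encodes periostin, a matrix protein of activated fibroblasts, and had the fewest counts of the 10, 45 to 107 per control library. It was at 3.17, 1.90 and 1.39 CPM in controls, 1.91, 5.53 and 2.94 CPM at day 5, 10.6, 9.13 and 11.3 CPM at day 14 and 5.52, 3.75 and 8.997 CPM at day 21. The day-14 and day-21 kidneys were above the controls and the day-5 kidneys overlapped with them. Postn rose by 2.26 ± 0.43 at day 14 (adjusted p = 0.00114) and by 1.502 ± 0.43 at day 21 (adjusted p = 0.0187), the latter by 1.74 ± 0.40 without replicate 2, and was at 0.69 ± 0.43 at day 5 (adjusted p = 0.326).

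Between days, 7 of 10 were higher at day 14 than at day 5, where 50.9% of all genes passed and 24.7% were higher. The 3 that did not pass were Acta2 (1.23 ± 0.50, adjusted p = 0.0618), Tagln (0.77 ± 0.45, adjusted p = 0.167) and Itga8 (0.25 ± 0.27, adjusted p = 0.465). Acta2 and Tagln passed without day-21 replicate 2 (adjusted p = 0.000125 and 0.000232), where 59.6% of all genes passed and 29.5% were higher. Postn rose by 1.57 ± 0.42 (adjusted p = 0.00976), Pdgfb by 1.54 ± 0.16 (adjusted p = 9.2e-05) and Rgs5 by 1.304 ± 0.35 (adjusted p = 0.0103) over this interval. The call for Pdgfra, at 0.67 ± 0.24 (adjusted p = 0.0359), was lost without any 1 of day-14 replicates 1, 2 and 3 and day-5 replicates 1 and 3, with adjusted p of 0.0666 to 0.136.

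From day 14 to day 21, 3 of 10 fell and none rose, where 14.6% of all genes passed, 7.03% higher and 7.57% lower. Pdgfb fell by 1.49 ± 0.16 (adjusted p = 0.00079), Cspg4 by 1.35 ± 0.28 (adjusted p = 0.0116) and Pdgfrb by 0.72 ± 0.22 (adjusted p = 0.0496). If day-21 replicate 1 was left out, 6 fell, with Pdgfra (adjusted p = 0.0199), Des (adjusted p = 0.0226) and Rgs5 (adjusted p = 0.0356) in addition. Calls over all genes, in both directions, also rose in that fit, from 2893 to 4874. The Pdgfrb call held without day-21 replicate 2 (adjusted p = 0.0489) and was kept without day-21 replicate 1, and was lost without any 1 of the 10 other libraries. Without day-21 replicate 2, 3 of 10 still fell, where 23.9% of all genes passed and 11.4% were lower, with Pdgfb at -1.298 ± 0.10 and Cspg4 at -1.06 ± 0.18. In that fit Acta2 was at 0.02 ± 0.20 (adjusted p = 0.964) and Tagln at 0.09 ± 0.14 (adjusted p = 0.668), so that no fall of these genes was detectable. Day 21 against day 5 gave no call among the 10 with edgeR, where 26.9% of all genes passed, 15% higher and 11.8% lower, while at an unadjusted p under 0.05 Des alone passed and DESeq2 called 1. Without day-21 replicate 2, 7 of 10 were higher at day 21 than at day 5, where 55.6% of all genes passed and 27.9% were higher.

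Ratios of counts within a library do not depend on the scaling between libraries. With 3 against 3 kidneys, an exact two-sided permutation test cannot give a p below 0.1. The log2 ratio of Itga8 to Pdgfrb was -0.84 ± 0.05 (SD, n = 3) in controls, -1.76 ± 0.03 at day 5 and -2.55 ± 0.03 at day 14, and these groups did not overlap (exact permutation p = 0.1 for each day against control). At day 21 it was -2.08, -1.31 and -2.81 in replicates 1, 2 and 3, all below the controls. Pdgfb to Pdgfrb was -0.92 ± 0.15 in controls, -0.48 ± 0.29 at day 5 and 0.02 ± 0.12 at day 14, both above every control, and overlapped with the controls at day 21 at -0.71 ± 0.47 (exact permutation p = 0.5).

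Rgs5 to Cspg4, both pericyte genes, was 1.53 ± 0.30 in controls, 0.68 ± 0.19 at day 5 and 0.75 ± 0.09 at day 14, both below every control, and overlapped with them at day 21 at 1.43 ± 0.27. Acta2 to Des was 1.41 ± 0.34 in controls, and 2.28 ± 0.20 at day 5 and 2.23 ± 0.14 at day 14, above every control, and it overlapped with the controls at day 21 at 2.08 ± 0.92. Pdgfra to Pdgfrb was -0.20 ± 0.04 in controls and -0.52 ± 0.04 at day 14, below every control, while days 5 and 21 overlapped with them. Acta2 to Tagln stayed within a narrower range, with 0.08 ± 0.11 in controls, -0.18 ± 0.16 at day 5, below every control, and 0.29 ± 0.07 at day 14, above every control, and it overlapped with the controls at day 21 at 0.14 ± 0.13. Postn to Acta2 overlapped with the controls at every day, with -3.49 ± 0.33 in controls and -3.41 ± 0.14 at day 14.

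**Figure D3:**
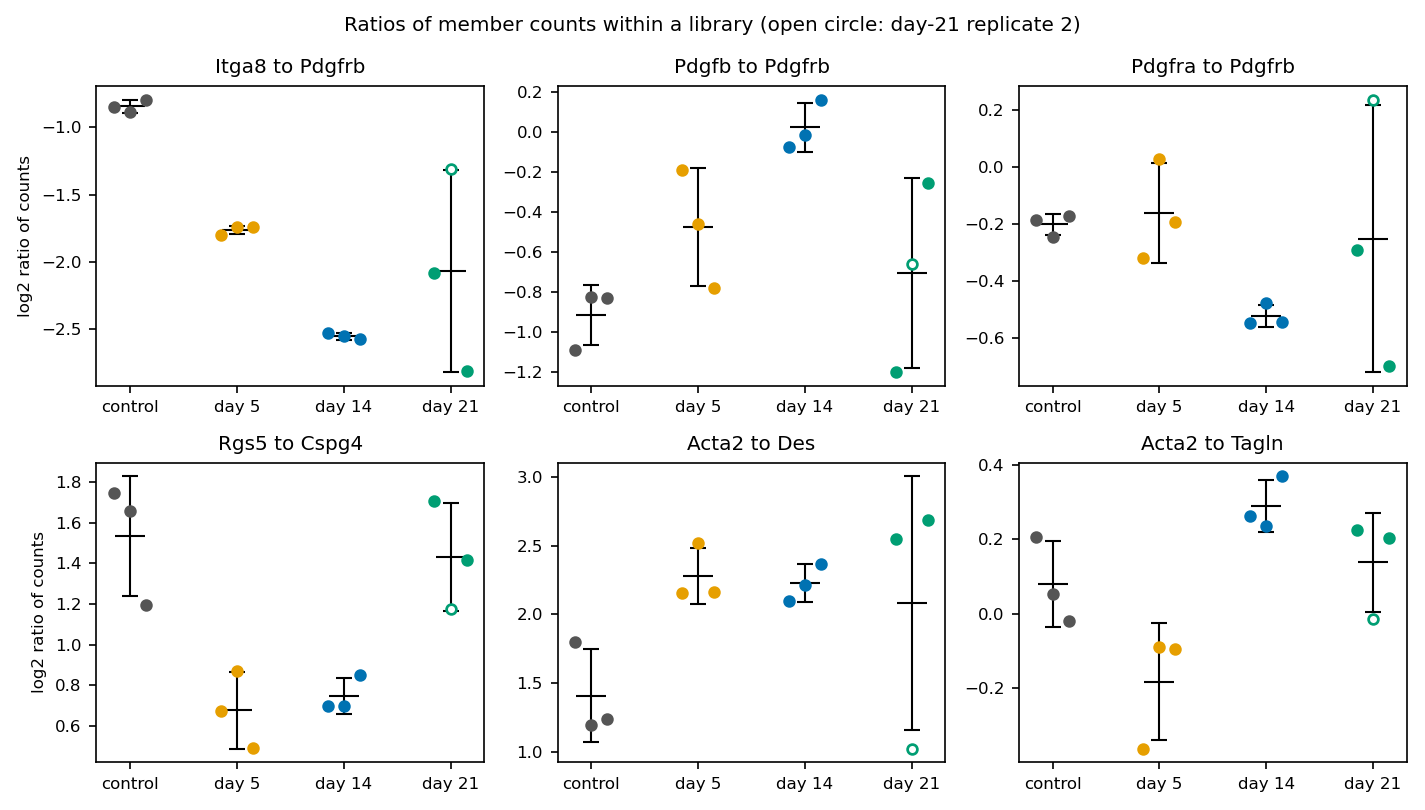
Log2 ratios of the counts of pairs of the genes within each library, by group; points are single kidneys, bars are the mean ± SD of 3, and the open circle is day-21 replicate 2. Itga8 to Pdgfrb falls from about -0.84 in controls to -2.55 at day 14 with no overlap between control, day 5 and day 14.

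Per kilobase of gene length, the order of the levels in controls was led by Tagln at 9.76 ± 1.87, Rgs5 at 9.34 ± 1.96 and Acta2 at 7.90 ± 2.12 CPM per kb (SD, n = 3), which did not differ beyond their spread. Pdgfrb followed at 5.13 ± 0.62 CPM per kb. Pdgfb at 2.76 ± 0.05, Pdgfra at 2.45 ± 0.33, Des at 2.30 ± 0.06 and Itga8 at 2.11 ± 0.26 CPM per kb lay close together, followed by Cspg4 at 1.23 ± 0.24 and Postn at 0.247 ± 0.106. At day 14, Tagln at 39.7 ± 1.1 and Acta2 at 36.8 ± 1.4 CPM per kb were ahead of Rgs5 at 21.0 ± 0.8. Pdgfb at 15.4 ± 1.0 and Pdgfrb at 14.8 ± 0.3 CPM per kb were then level within their spread, and Itga8 at 1.86 ± 0.07 was above only Postn at 1.19 ± 0.13.

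Likeness of pattern was measured over the 12 libraries as the root mean square difference of log2 CPM, each gene taken relative to its own control mean, among 12408 genes whose log2 CPM averaged 1 or more. The gene most like Acta2 was Tagln, and the reverse held too, at a difference of 0.20. Pdgfrb was nearest to Atp8b2, at 0.09, followed by Col5a2 at 0.12. Des was nearest to Aebp1 at 0.12, Rgs5 to Flrt2 at 0.18, Itga8 to Frzb at 0.19 and Pdgfra to Il2rg at 0.19. Pdgfb was nearest to Junb at 0.24, Cspg4 to Ccn4 at 0.25 and Postn to Oas1a at 0.29. Among the 10 themselves the least alike pair was Acta2 and Itga8, at a difference of 1.85.

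Other contractile genes were also higher at day 14. Of 17 contractile and SRF-myocardin genes, 13 rose and none fell at day 14 (median 1.26 on the log2 scale, against 0.08 over all genes), and 8 rose and none fell at day 21 (median 0.80), or 12 and none without replicate 2. Over all genes, 31.2% were higher at day 14, 24.3% at day 21 and 9.77% at day 5, where 5.09% were lower. At day 5, 3 rose and 1 fell (median 0.14), the latter being Synpo2, an actin-binding protein named after its values were seen, at -1.05 ± 0.24 (adjusted p = 0.0147). Without day-21 replicate 2, 6 rose and 1 fell at day 5. In that fit 17.4% of all genes were higher and 14.9% lower at day 5, and 33.2% were higher at day 21. Vcl, the adhesion protein vinculin, rose by 0.66 ± 0.15, 1.63 ± 0.15 and 0.80 ± 0.15 at days 5, 14 and 21 (adjusted p = 0.0137, 2.03e-05 and 0.00349). Tpm1, tropomyosin, rose by 0.67 ± 0.16, 1.66 ± 0.17 and 1.15 ± 0.16 (adjusted p = 0.0193, 2.87e-05 and 0.00102). Myh11, the smooth muscle myosin heavy chain, named after its values were seen, was at 0.62 ± 0.44 at day 14 (adjusted p = 0.243).

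Other pericyte and mesangial markers were called in both directions. Of 18, 16 were tested, and 7 rose and 5 fell at day 14 (median 0.49), 6 rose and 5 fell at day 21 (median 0.13), and none rose and 1 fell at day 5 (median -0.08). Over all genes, 31.2% were higher and 28.8% lower at day 14, 24.3% and 18.5% at day 21, and 9.77% and 5.09% at day 5. Without day-21 replicate 2, 3 rose and 1 fell at day 5, 8 and 6 at day 14, and 7 and 5 at day 21. In that fit 17.4% of all genes were higher and 14.9% lower at day 5, 34.7% and 30.9% at day 14, and 33.2% and 28.4% at day 21. Itga1, the integrin α1 subunit, rose by 1.03 ± 0.09 at day 14 (adjusted p = 1.17e-05), and Gucy1a1, a subunit of the nitric oxide receptor, by 1.61 ± 0.18 (adjusted p = 5.06e-05). The following were named after their values were seen. Foxd1, a transcription factor, fell by 1.96 ± 0.24 at day 5 (adjusted p = 0.000372). The podocyte marker Wt1 also fell at day 5, and the part of podocytes in the Foxd1 values was not tested. Notch3, a receptor of mural cells, rose by 1.22 ± 0.26 at day 14 (adjusted p = 0.00199), and Heyl, a target of Notch signalling, by 1.74 ± 0.24 (adjusted p = 0.000179). Abcc9 and Kcnj8, which together form the potassium channel of pericytes and vascular smooth muscle that is gated by ATP, fell by 2.57 ± 0.35 (adjusted p = 0.000176) and by 1.51 ± 0.21 (adjusted p = 0.00016), and Abcc9 went from a mean of 19.7 to 3.32 CPM.

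Most fibroblast and myofibroblast markers rose at days 14 and 21. Of 16, 14 rose and none fell at day 14 (median 2.34), 12 rose and none fell at day 21 (median 2.02), or 14 and none without replicate 2, and 4 rose and 1 fell at day 5 (median 0.70), or 7 and 1 without day-21 replicate 2. The shares over all genes were 31.2%, 24.3% and 9.77% higher at days 14, 21 and 5, with 5.09% lower at day 5. Without day-21 replicate 2, 33.2% and 17.4% of all genes were higher at days 21 and 5, and 14.9% were lower at day 5. Gli1, a transcription factor of perivascular fibroblasts, rose by 2.32 ± 0.30 at day 14 (adjusted p = 0.000124), from a mean of 0.191 to 0.967 CPM, and was at -0.03 ± 0.35 at day 5 (adjusted p = 0.968). Col3a1, a fibrillar collagen, rose by 1.96 ± 0.31 at day 5 (adjusted p = 0.00181). Ren1, renin of the juxtaglomerular cells, which are of the same lineage as mural cells, rose by 1.58 ± 0.24 at day 5 (adjusted p = 0.00158) and fell by 1.97 ± 0.25 at day 14 (adjusted p = 0.000104).

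**Figure D4:**
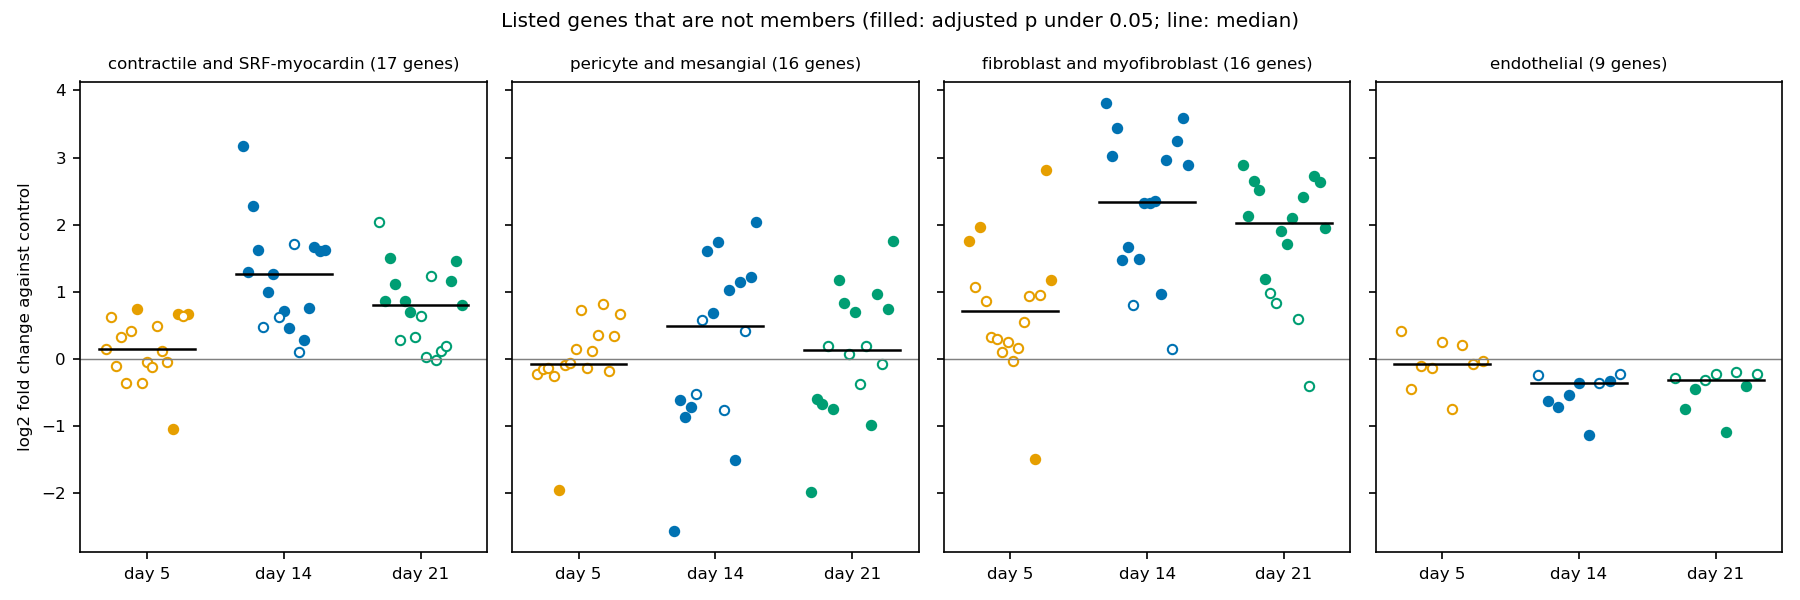
Log2 fold change against control of listed genes other than the 10, at days 5, 14 and 21; each point is a gene, filled points have an adjusted p under 0.05, and lines are medians. Contractile and fibroblast lists lie mostly above 0 at day 14, pericyte and mesangial genes on both sides, and endothelial genes below.

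Markers of neighbouring tissues also differed between kidneys. The 4 adipocyte markers summed to 125.6 and 125.9 CPM in day-14 replicates 1 and 2 and to 6.69 CPM in replicate 3, against 5.71 to 44.78 CPM in controls, and none of the 4 passed against control at any day with edgeR. Urothelial markers summed to 4.803 to 11.83 CPM in controls and 6.717 to 29.47 CPM at day 14. Of these 4 markers, 3 rose at day 14, where 31.2% of all tested genes were higher. The part of these tissues in the values of the 10 genes was not tested.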

How the data were processed

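Poly(A) RNA-seq of 12 whole kidneys (4 groups of 3) was deposited by the authors as 1 table of raw counts per gene for 56722 genes. Per the submitters' processing notes, fastp 0.20.0, featureCounts and GRCm39 were used; the aligner, annotation release and strand setting were not stated there. All labels give 1 batch. Counts were fitted in edgeR 4.0.16 (limma 3.58.1, R 4.3.3) by the quasi-likelihood test with TMM factors, filterByExpr and 1 coefficient per group. Benjamini-Hochberg adjustment ran over the 19821 genes tested, with a threshold of 0.05. The SE is the log2 fold change divided by the root of its F. CPM values are counts scaled to a common (TMM-adjusted) library size. Log2 CPM used a prior count of 2, and ratios used the count plus 0.5. The fits were tested on simulated counts with a fixed spread, balanced changes in a minority of genes and no outlying library. These settings differ from the data, so that test does not cover them.

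The members and lists were chosen with earlier results of these data known. All 10 members are described, with the PDGF and integrin α8 lists in full; of other lists, the rule named the 2 genes with the smallest joint adjusted p, and others are marked where they appear. Alternatives were median-of-ratios size factors, library totals, DESeq2 1.42.0, no filter, a replicate block, only the libraries compared, and each library left out. No libraries were identical. Counting error is small at 31023852 to 46420299 counts per library, except for low genes such as Postn.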

Additional observations from a re-analysis of the deposited data

Results flagged for a closer look

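Rgs5 was singled out because its change differed between days. It was at -0.13 ± 0.35 (log2, SE) against control at day 5 (edgeR adjusted p = 0.838) and rose by 1.17 ± 0.35 at day 14 (adjusted p = 0.0134). The difference of day 14 against day 5 was 1.304 ± 0.35 (adjusted p = 0.0103), and all 3 day-14 kidneys were above all 3 day-5 kidneys, as for each of the 10 genes. Rgs5 was not alone in this, as 7 of the 10 were higher at day 14 than at day 5, where 24.7% of all genes were. Postn (1.57) and Pdgfb (1.54) rose more than Rgs5. The sign of Rgs5 at day 5 turned with library totals (0.01), so the 2 days are shown to differ in size and not in direction.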

How the results depend on the processing

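Of 1080 log2 fold changes of the 10 genes under the alternatives, 976 kept direction and side of the threshold, 48 were no longer past it, 37 newly passed it and 19 changed sign, none of them called. The cause of the changes below was not tested. The count of 9 higher genes at day 14 was 8 without control replicate 2 or 3 and 9 under every other alternative. With only the 6 libraries compared, genes called were 6982 at day 5, 1631 at day 21, 263 for day 21 against day 14 and 506 for day 21 against day 5; of the 10, 6 were higher and 1 lower at day 5, 1 was higher at day 21 and 1 was lower at day 21 than day 14. DESeq2 called 2 of 10 higher at day 5 and 1 for day 21 against day 5, where library totals gave 2. Leaving out 1 library gave 1570 to 6691 genes at day 5, 4918 to 12738 at day 21, 852 to 4949 for day 21 against day 14 and 2089 to 11506 for day 21 against day 5. The members higher then ranged from 1 to 5, 1 to 9 and 0 to 7 at day 5, at day 21 and for day 21 against day 5, and those lower for day 21 against day 14 from 2 to 6.

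Library totals turned Itga8 to 0.55 at day 14 and 0.0759 at day 21, Rgs5 to 0.00933 at day 5 and Cspg4 to 0.27 for day 21 against day 5. Leaving out 1 library gave, with a change of sign, -0.84 to 0.0163 for Acta2, -0.71 to 0.091 for Tagln and -0.51 to 0.12 for Itga8 for day 21 against day 14. For day 21 against day 5 it gave -0.41 to 0.16 for Cspg4, -0.27 to 0.36 for Itga8, -0.13 to 0.24 for Pdgfb, -0.12 to 0.44 for Pdgfra and -0.0451 to 0.52 for Pdgfrb. At day 5 it gave -0.0335 to 0.29 for Des and -0.29 to 0.00528 for Rgs5.

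Libraries with the same replicate number shared only a number: their deviations correlated at -0.14 to 0.171 over 18 pairs, 4 of them over 0.1, and 4 of 12 libraries correlated best with their own number. With the number as a replicate block, 2653, 11673 and 8218 genes were called at days 5, 14 and 21, of the 10 genes 1, 9 and 7 were higher, Pdgfra for day 14 against day 5 had an adjusted p of 0.0502 and Pdgfrb for day 21 against day 14 one of 0.0507 in edgeR, and Itga8 for day 21 against day 5 was at -0.0117.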
